A study of Mus musculus with 20 samples.

Results

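The genes described here carry out calcium handling and excitation coupling in skeletal muscle. The 10 were chosen by symbol: Cacna1s, Cacng1, Ryr1, Casq1, Casq2, Atp2a1, Atp2a2, Sln, Pln and Pvalb. On the arrays 9 of them were represented, by 10 of 12654 probe sets, because Pvalb had 2; the expression of Pln is not analysed here. All 10 probe sets reached the level required for testing, as did 7204 probe sets in all. Total RNA of mice aged 8 weeks had been hybridised to one-colour Affymetrix arrays, 20 in number. There were 4 groups of 5 arrays: extraocular muscle (EOM) of mdx mice, EOM of control mice, leg muscle of mdx mice and leg muscle of control mice. The mdx mouse carries a mutation of Dmd and lacks full-length dystrophin in all its muscles, and is used as a model of Duchenne muscular dystrophy in which the eye muscles are spared. The control leg samples are labelled as gastrocnemius and soleus, which are calf muscles, and the mdx leg samples only as leg muscle. The labels give neither strain nor sex, and do not say whether an array stands for 1 animal or a pool, so the p-values below measure the spread between arrays. Control and mdx arrays also carry different description labels, and a batch that went with those labels cannot be told apart from the genotype.

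In skeletal muscle an action potential runs into the transverse tubules, where the L-type channel complex acts as a voltage sensor. Its pore subunit, encoded by Cacna1s, is mechanically coupled to the ryanodine receptor Ryr1 in the facing membrane of the sarcoplasmic reticulum, and Ryr1 releases stored calcium that starts contraction. Calsequestrins hold calcium inside the store, SERCA pumps return it, sarcolipin and phospholamban restrain the pumps, and parvalbumin buffers calcium in the cytosol of fast fibres. Many of these proteins exist as a fast-fibre and a slow-fibre or cardiac isoform. Extraocular muscle is known for unusually fast contraction and for fibre types that limb muscle lacks. Raised cytosolic calcium is a long-standing theme of work on dystrophic muscle.

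The promoters of Casq2, Casq1 and Pvalb are shown because these are members that differed between the muscles and have a sequence in the table used. Each run is the 250 bases before an annotated start, 5′ to 3′ on the gene's strand, from RefSeq on build GRCm38.p6. Capitals mark the E-box (CANNTG, the motif of MyoD-family factors) and the binding consensus of MEF2, a muscle transcription factor.
Casq2, chr3:102086165-102086414, plus strand: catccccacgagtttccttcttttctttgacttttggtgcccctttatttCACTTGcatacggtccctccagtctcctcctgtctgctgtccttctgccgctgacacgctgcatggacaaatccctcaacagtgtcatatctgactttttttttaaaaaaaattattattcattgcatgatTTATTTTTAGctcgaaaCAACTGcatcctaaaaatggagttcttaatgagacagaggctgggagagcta
Casq1, chr1:172219896-172220145, minus strand: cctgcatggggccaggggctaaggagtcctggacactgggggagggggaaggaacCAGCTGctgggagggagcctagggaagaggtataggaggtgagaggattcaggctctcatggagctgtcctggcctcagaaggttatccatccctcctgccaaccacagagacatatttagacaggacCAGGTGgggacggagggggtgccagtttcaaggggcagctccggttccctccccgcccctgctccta
Pvalb, first start, chr15:78206401-78206650, minus strand: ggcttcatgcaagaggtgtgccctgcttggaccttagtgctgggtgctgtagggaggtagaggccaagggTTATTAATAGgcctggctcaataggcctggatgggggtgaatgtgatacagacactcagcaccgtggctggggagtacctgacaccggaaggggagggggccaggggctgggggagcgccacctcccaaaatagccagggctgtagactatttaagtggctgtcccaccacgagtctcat
Pvalb, second start, chr15:78204238-78204487, minus strand: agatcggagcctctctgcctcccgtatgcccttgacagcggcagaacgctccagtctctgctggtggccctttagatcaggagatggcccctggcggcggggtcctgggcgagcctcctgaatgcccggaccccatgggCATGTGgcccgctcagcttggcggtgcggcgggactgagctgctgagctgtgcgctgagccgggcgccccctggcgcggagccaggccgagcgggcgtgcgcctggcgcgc
The Casq2 window held 2 E-boxes and 1 MEF2 match, and the Casq1 window held 2 E-boxes. Of the Pvalb windows, the first held 1 MEF2 match and the second held 1 E-box. Over 7 members with an entry, Pln included, there were 8 promoters, of which 6 held an E-box, 2 a MEF2 match and 2 the NFAT core GGAAA, read on both strands and free to overlap the other motifs. Among all 32851 promoters of this length the shares were 66.2% for the E-box, 2.92% for MEF2 and 55.6% for the NFAT core. A match describes the letters of the window and is no evidence of binding. Atp2a2, Cacng1 and Sln had no entry.

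The deposited intensities were brought to a common mean per array, so signals below are scaled intensities. A log2 difference comes from log2 values with signals under 50 raised to 50, and its p-value is adjusted over all 7204 probe sets. On each array between 47.2% and 52.0% of probe sets reached a signal of 200. Dmd was lower in both mdx groups than in the matching controls. It had a signal of 119 ± 31.7 in mdx EOM and 268 ± 47.4 in control EOM (SD, n = 5 each), groups that did not overlap although the test was not passed (adjusted p = 0.233). In leg muscle it had 77.5 ± 32.3 in mdx mice and 149 ± 40.2 in controls (adjusted p = 0.0323). The first control leg array correlated least with its own group, at a mean r of 0.892 against up to 0.931 on other arrays. The summed signal of 7 slow-fibre markers was 92228 on that array and 3201 on control leg array 4, against 36458 to 37702 on the other 3 control leg arrays. The fourth control leg array also had a sum of 9097 over 5 epithelium and gland markers, of which Bpifa2 made 8892, against sums of 339 to 1027 on the others. For many comparisons that changed on leaving out either or both of these 2 arrays, a value without them is given as well. Comparisons printed without such a value may also depend on these arrays.

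With 9 members tested the counts of calls are small, and they were not tested against the shares over all probe sets. In leg muscle 1 of 9 members passed the test between genotypes, Cacna1s, which was lower in mdx mice, against 17.9% of all probe sets. At an unadjusted p under 0.05 there were 5 members and 2124 probe sets in leg muscle. In EOM 0 of 9 members passed, against 0.0833% of all probe sets (6 probe sets), and at an unadjusted p under 0.05 there were 0 members and 369 probe sets. For the difference between the mdx effects in the 2 muscles 0 members passed in limma, against 6.22% of all probe sets. At an unadjusted p under 0.05 there were 3 members and 1320 probe sets for this difference. Between EOM and leg muscle 3 of 9 members passed in control mice, against 17.7%, and 3 in mdx mice, against 18.1%. At an unadjusted p under 0.05 there were 4 members and 2064 probe sets in controls, and 5 members and 2114 probe sets in mdx mice. Cacng1 was lower in EOM in both genotypes, as was Pvalb by the brighter of its 2 probe sets, the one counted here, but not by the other. Casq2 was higher in EOM of controls, and Casq1 was higher in EOM of mdx mice. The median log2 difference of the 9 members was -0.38 in leg muscle and 0.01 in EOM between genotypes, where all probe sets had -0.06 and -0.02. Between muscles it was -0.29 in controls and 0.16 in mdx mice, where all probe sets had 0.02 and 0.00. The arrays of 2 groups did not overlap for 0 of 9 members between genotypes in either muscle. Between muscles this held for 3 members in controls and 2 in mdx mice. Among all probe sets the shares without overlap were 13.6% in leg muscle and 1.15% in EOM between genotypes. Between muscles they were 13.5% in controls and 14.4% in mdx mice. The 2 muscle comparisons and the 2 genotype comparisons use the same 4 groups, so they are not independent of each other.

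**Figure D1:**
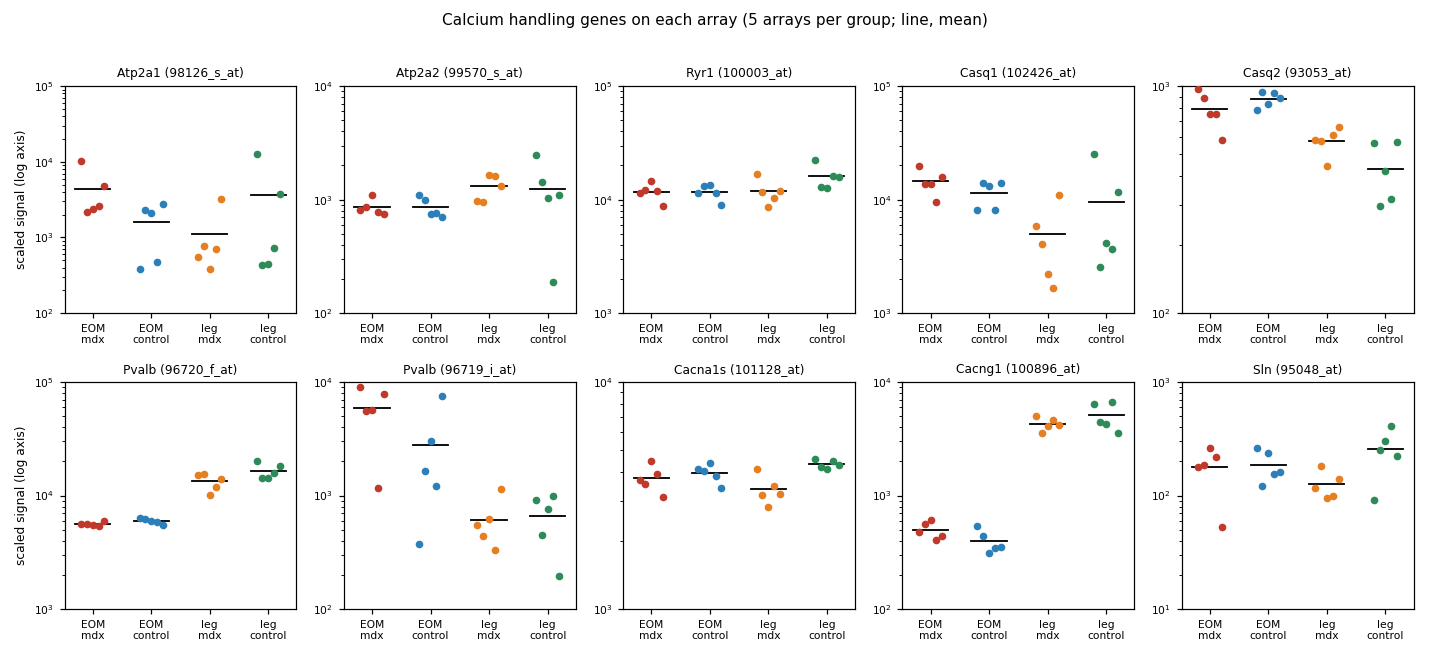
Scaled signal (log axis) of each of the 10 member probe sets on each of the 20 arrays, by group, with the group mean as a line. Cacng1 and the brighter Pvalb probe set (suffix f_at) separate EOM from leg muscle in both genotypes, while Atp2a1 and the other Pvalb probe set (suffix i_at) vary widely inside groups.

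Cacng1 encodes the gamma subunit of the skeletal muscle L-type channel, which modulates its gating. Its signal was 475, 561, 611, 404 and 444 on the mdx EOM arrays and 539, 438, 314, 345 and 354 on the control EOM arrays. In leg muscle it was 5037, 3572, 4127, 4595 and 4186 on the mdx arrays and 6398, 4475, 4288, 6727 and 3576 on the control arrays. Every EOM array lay far below every leg array, and within each muscle the genotypes overlapped. Control EOM was lower than control leg muscle by a log2 difference of -3.66 (SE 0.18, 12.7-fold, adjusted p = 2.36e-12). The corresponding difference in mdx mice was -3.11 (SE 0.18, 8.66-fold, adjusted p = 4.22e-11). Both calls held in each of the 10 fits that left out 1 array and under each other setting tried. From high to low the order of the means was control leg, mdx leg, mdx EOM, control EOM. Neighbours of the same muscle did not pass: the mdx effect had a log2 difference of -0.21 in leg muscle (adjusted p = 0.475) and 0.34 in EOM (adjusted p = 0.979). The difference between these effects was -0.55 (95% interval -1.07 to -0.03, adjusted p = 0.241). Without control leg arrays 1 and 4 the leg effect turned to 0.06 and the difference between the effects was -0.28, neither of which passed.

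Cacna1s, the voltage-sensing pore subunit of the same complex, did not share this gap between muscles. Its signal was 4154, 3170, 2802, 3490 and 3203 on the mdx leg arrays and 4573, 4208, 4132, 4470 and 4295 on the control leg arrays. The first mdx leg array lay above the lowest control and the other 4 lay below all controls. The log2 difference in leg muscle was -0.38 (SE 0.12, 1.30-fold, adjusted p = 0.0259). That call was kept in 5 of the 10 fits that left out 1 array, and the adjusted p went as high as 0.0827 without mdx leg array 3. It was lost, too, without control leg array 1, without control leg array 4, without mdx leg array 2 or 5, and without control leg arrays 1 and 4 together, where the log2 difference was -0.34. In EOM the signal was 3760 ± 511 in mdx mice and 3980 ± 366 in controls (SD, n = 5 each), with a log2 difference of -0.09 (95% interval -0.33 to 0.15). The difference of the effects was -0.29 (95% interval -0.63 to 0.05, adjusted p = 0.374), so the 2 muscles were not shown to differ. EOM and leg muscle of control mice differed by a log2 value of -0.13 (95% interval -0.37 to 0.11), and those of mdx mice by 0.16 (95% interval -0.08 to 0.40). Control leg muscle had the highest mean, followed by control EOM, mdx EOM and mdx leg muscle.

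The summed signals of markers of macrophages, of matrix and of cardiac muscle were also higher on the mdx leg arrays. The summed signal of 8 macrophage markers was 26087 to 31537 on mdx leg arrays and 2283 to 3290 on control leg arrays. In EOM it was 4445 to 8609 in mdx mice and 3779 to 5096 in controls. Of 5 fibroblast and matrix markers the sums were 30006 to 36282 on mdx leg arrays and 4456 to 15089 on control leg arrays. Of 7 cardiac muscle markers, several of which developing skeletal fibres also express, they were 2928 to 3497 on mdx leg arrays and 1328 to 2426 on control leg arrays. Of 5 tested cardiac markers 2 were called higher in mdx leg muscle, Tnnt2 and Myl4, against 17.9% of all probe sets. Tnni3, Myl7 and Myh6 had lower means there than in controls. The developmental myosin genes Myh3 and Myh8 had means of 383 and 477 in mdx leg muscle and 607 and 552 in control leg muscle, and neither passed. In EOM the cardiac sums were 2403 to 3161 in mdx mice and 2334 to 3234 in controls. No intensity in the file was 0, the lowest being 0.4 as deposited. Fewer muscle fibres in the sampled tissue and less RNA per fibre cannot be told apart in such bulk samples, and the part of these cells in the lower Cacna1s signal, or in the Casq2 and Atp2a2 values of leg muscle, was not tested.

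Ryr1 is the calcium release channel of the skeletal sarcoplasmic reticulum. Its signal was 16714, 11770, 8585, 10275 and 11969 on the mdx leg arrays and 22503, 12877, 12734, 16158 and 15941 on the control leg arrays. The leg groups overlapped, and the log2 difference of -0.44 (SE 0.18, 95% interval -0.82 to -0.06) did not pass adjustment (adjusted p = 0.110). It passed in 1 of 10 fits that left out 1 array, without mdx leg array 1 (-0.57, adjusted p = 0.0304), and was -0.25 without control leg arrays 1 and 4. In EOM the signal was 11778 ± 2019 in mdx mice and 11698 ± 1820 in controls (SD, n = 5 each), a log2 difference of 0.01 (95% interval -0.38 to 0.39). Control leg muscle had the highest mean, and the other 3 group means lay between 11698 and 11863. The EOM of control mice had a log2 difference of -0.44 from control leg muscle (adjusted p = 0.111), or -0.25 without control leg arrays 1 and 4. In mdx mice that difference was 0.01 (95% interval -0.38 to 0.39).

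Casq2 encodes the calsequestrin isoform of cardiac and slow skeletal fibres. Its signal was 786, 938, 837, 934 and 888 on the control EOM arrays and 563, 298, 421, 318 and 567 on the control leg arrays. The control groups did not overlap, and EOM was higher by 1.07 on the log2 scale (SE 0.18, 2.09-fold, adjusted p = 0.000217). This call held in all 10 such fits, where the adjusted p was at most 0.000932. In mdx mice the signal was 972, 887, 754, 756 and 578 in EOM and 576, 571, 443, 611 and 658 in leg muscle. Those groups overlapped, through EOM array 5 and leg arrays 4 and 5, with a log2 difference of 0.46 (95% interval 0.08 to 0.83, adjusted p = 0.0894). From high to low the means ran control EOM, mdx EOM, mdx leg and control leg. The mdx effect did not pass in leg muscle, where it was 0.44 (adjusted p = 0.103), or in EOM, where it was -0.17 (95% interval -0.55 to 0.21). Without control leg array 1, or without control leg array 5, the leg effect was 0.55 and passed, and the lowest adjusted p among these fits was 0.0436. It also passed with array weights (adjusted p = 0.0198), and without control leg arrays 1 and 4 it was 0.45 and did not pass. The difference of the effects was 0.61 (95% interval 0.08 to 1.14, adjusted p = 0.198).

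Casq1 encodes the main calsequestrin of fast skeletal fibres. On the mdx EOM arrays its signal was 19610, 13821, 13696, 9537 and 15983, and on the mdx leg arrays it was 5872, 4042, 2195, 1654 and 11059. Only the fourth EOM array lay under the highest leg array, and EOM was higher by 1.84 on the log2 scale (SE 0.51, 3.59-fold, adjusted p = 0.0129). The adjusted p stayed under 0.05 in all 10 fits that left out 1 array, the highest being 0.0473 without mdx leg array 4. In control mice the signal was 8067, 13986, 13174, 8035 and 13890 in EOM and 25181, 2562, 4156, 3638 and 11761 in leg muscle. Control leg arrays spread over 9.83 times from lowest to highest, and the log2 difference of 0.77 did not pass (95% interval -0.28 to 1.82, adjusted p = 0.341). Without control leg array 1 it was 1.26 (adjusted p = 0.0575), and with array weights it was 1.31 and passed (adjusted p = 0.0265). The mdx effect was -0.72 in leg muscle (95% interval -1.77 to 0.33) and 0.35 in EOM (95% interval -0.70 to 1.40). The leg effect was -0.23 without control leg array 1 and -0.34 without control leg arrays 1 and 4. The difference of the mdx effects was -1.07 (95% interval -2.56 to 0.41), and -0.58 without control leg array 1. The means ran mdx EOM, control EOM, control leg, mdx leg from high to low.

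Some Casq1 extremes fell on the same arrays as those of a control probe set. The Affymetrix control set for the 5′ part of Gapdh ran from 8575 to 17120 on mdx EOM arrays and from 4302 to 9219 on mdx leg arrays. It ran from 7563 to 14137 on control EOM arrays and from 1693 to 24532 on control leg arrays. In 3 of 4 groups the array with the highest Casq1 signal was also the one with the highest Gapdh 5′ signal, and for the Gapdh 3′ set this was so in 4 of 4 groups. The lowest arrays coincided in 2 of 4 groups for the 5′ set and in 1 of 4 for the 3′ set. The slow-fibre marker sum coincided with Casq1 as often as the 5′ set did, in 3 groups at the top and 2 at the bottom. Casq2 coincided with the Gapdh 3′ set in 3 groups at the top and 3 at the bottom. Gapdh is itself a glycolytic gene of muscle fibres, and the part of RNA quality or labelling in the calsequestrin values was not tested.

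**Figure D2:**
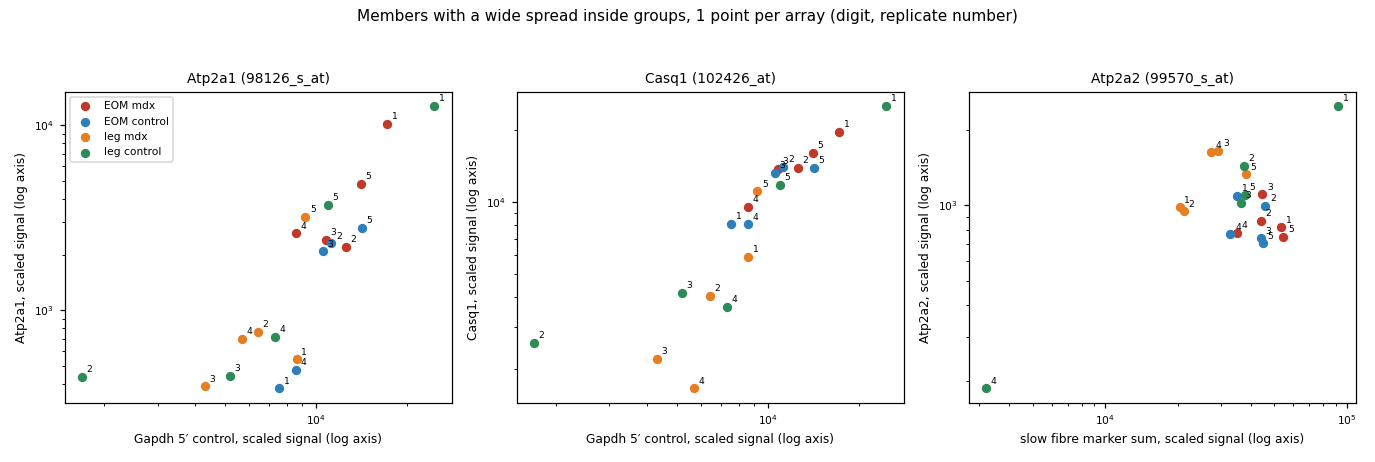
Scaled signals (log axes) on each array, coloured by group and numbered by replicate: Atp2a1 and Casq1 against the Gapdh 5′ control set, and Atp2a2 against the sum of 7 slow-fibre markers. Control leg array 1 is at the top of each panel, at 12725 for Atp2a1, 25181 for Casq1 and 2491 for Atp2a2, and control leg array 4 is at the lower left of the third panel, at 187.

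Atp2a1 encodes SERCA1, the calcium pump of fast fibres. Its signal was 10183, 2200, 2400, 2600 and 4808 on the mdx EOM arrays and 378, 2296, 2082, 478 and 2796 on the control EOM arrays. In leg muscle it was 545, 765, 389, 700 and 3198 on the mdx arrays and 12725, 437, 443, 717 and 3726 on the control arrays. The control leg arrays alone spanned 29.1-fold, and all 4 groups overlapped. The spread inside groups, 1.48 on the log2 scale, was larger than that of 99.9% of the tested probe sets, whose median was 0.34. The means ran mdx EOM, control leg, control EOM, mdx leg from high to low, but none of the comparisons passed. The mdx effect was 1.62 in EOM (95% interval -0.05 to 3.30, adjusted p = 0.958) and -0.84 in leg muscle (95% interval -2.51 to 0.84, adjusted p = 0.539). The difference of these effects was -2.46 (95% interval -4.82 to -0.10, adjusted p = 0.250). EOM and leg muscle of mdx mice differed by 2.17 on the log2 scale (95% interval 0.50 to 3.84, adjusted p = 0.0666). That last comparison did pass with array weights, with a fit to these 2 groups alone, with a replicate block (adjusted p = 0.0423), and without mdx leg array 5, where the difference was 2.66. The mdx leg effect was -0.05 without control leg array 1 and -0.13 without control leg arrays 1 and 4. In controls EOM differed from leg muscle by -0.29 (95% interval -1.96 to 1.38), which turned to 0.49 without control leg array 1. In 4 of 4 groups the array with the highest Gapdh 5′ signal also had the highest Atp2a1 signal, and in 3 of 4 groups the lowest arrays coincided. The share of RNA quality or labelling in this spread was not tested.

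Atp2a2 encodes SERCA2, the pump isoform of slow fibres and heart. It had a signal of 982, 949, 1648, 1628 and 1328 on the mdx leg arrays and 2491, 1434, 1024, 187 and 1104 on the control leg arrays. The lowest and the highest value of the study were both control leg arrays, and these were the arrays with the lowest and the highest slow-fibre marker sum. The mdx effect in leg muscle was 0.43 (95% interval -0.43 to 1.29, adjusted p = 0.541), and it was -0.16 without control leg array 4 and 0.11 without control leg arrays 1 and 4. In EOM the signal was 865 ± 143 in mdx mice and 860 ± 172 in controls (SD, n = 5 each), a log2 difference of 0.01 (95% interval -0.84 to 0.87). The order of the means was mdx leg, control leg, mdx EOM, control EOM, and the log2 difference of EOM from leg muscle was -0.16 in controls (adjusted p = 0.851) and -0.57 in mdx mice (adjusted p = 0.396). The difference in mdx mice passed when only these groups were fitted (adjusted p = 0.0429). Without control leg array 4 the difference in controls was -0.74, and it then passed with an adjusted p of 0.0294. Without control leg array 1 it was 0.19, and without both arrays it was -0.47 and did not pass. The difference of the mdx effects was 0.41 (95% interval -0.80 to 1.63), and it turned to -0.17 without control leg array 4. The amount of slow-fibre tissue on an array was not tested as a term in these values.

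The balance between isoforms was followed as the log2 ratio of the fast to the slow or cardiac gene on each array. Because 2 probe sets hybridise with different strength, only differences of this ratio between groups can be read. For the pumps, the ratio of Atp2a1 to Atp2a2 ran from 1.12 to 3.64 on mdx EOM arrays and from -2.08 to 1.27 on mdx leg arrays. These groups overlapped by 1 array of leg muscle, and the means differed by 2.74. In control mice the ratio ran from -1.53 to 1.98 in EOM and from -1.71 to 2.35 in leg muscle. Between mdx and control EOM the means differed by 1.61, and between mdx and control leg muscle by -1.26, with overlap in both cases. Without control leg arrays 1 and 4 this leg difference was -0.25, and control EOM then lay 0.88 above control leg muscle, where all arrays gave -0.13. For the calsequestrins, the ratio of Casq1 to Casq2 was 1.39 higher in mdx EOM than in mdx leg muscle and differed by -1.16 between mdx and control leg muscle, or by -0.80 without control leg arrays 1 and 4. Its groups overlapped in all 4 comparisons. These ratios take in the wide spread of Atp2a1 and Casq1 and were given no test.

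Sln encodes sarcolipin, a small membrane protein that inhibits SERCA pumps. It was the dimmest member, with a mean signal above that of only 8.70% of tested probe sets. It had 177, 185, 263, 219 and 53.3 on the mdx EOM arrays and 263, 121, 237, 155 and 163 on the control EOM arrays. In leg muscle it had 117, 183, 95.9, 99.5 and 141 on the mdx arrays and 91.5, 253, 302, 410 and 222 on the control arrays. The leg groups overlapped through control array 1 alone. The log2 difference in leg muscle was -0.89 (95% interval -1.75 to -0.04, adjusted p = 0.149). Without control leg array 1 it was -1.22 and passed (adjusted p = 0.0343), as it did with array weights (adjusted p = 0.0410), but without control leg arrays 1 and 4 it was -1.06 and did not pass (adjusted p = 0.109). Control leg muscle had the highest mean, then control EOM, mdx EOM and mdx leg muscle. The mdx effect in EOM was -0.18 (95% interval -1.04 to 0.67), and it turned to 0.21 without mdx EOM array 5. The muscles differed by a log2 value of -0.35 in controls and 0.36 in mdx mice, neither of which passed (adjusted p = 0.638 and 0.621). Without control leg array 1 the value in controls was -0.68, without control leg array 4 it was -0.14, and without mdx EOM array 5 the value in mdx mice was 0.75.

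Pvalb encodes parvalbumin, the soluble calcium buffer of fast fibres. Its 2 probe sets went opposite ways between the muscles. The brighter one, whose suffix f_at marks probes that can match related sequences, had 5657, 5666, 5548, 5387 and 5923 on the mdx EOM arrays and 6280, 6265, 5922, 5798 and 5488 on the control EOM arrays. In leg muscle it had 15210, 15402, 10214, 11974 and 14020 on the mdx arrays and 20213, 14305, 14346, 15888 and 18137 on the control arrays. Every EOM array lay below every leg array. The log2 difference of EOM from leg muscle was -1.47 in control mice (SE 0.13, 2.76-fold, adjusted p = 2.73e-08) and -1.23 in mdx mice (SE 0.13, 2.34-fold, adjusted p = 3.62e-07). The mdx effect was -0.31 in leg muscle (95% interval -0.58 to -0.05, adjusted p = 0.0924) and -0.08 in EOM (95% interval -0.34 to 0.18). The order of the means was control leg, mdx leg, control EOM, mdx EOM.

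The other Pvalb probe set bears the suffix i_at, which marks a set with fewer probes than usual. It had 9077, 5571, 5646, 1155 and 7811 on the mdx EOM arrays, against 546, 436, 616, 334 and 1140 on the mdx leg arrays. These groups did not overlap, although the lowest EOM array and the highest leg array were nearly equal, and EOM was higher by 3.10 on the log2 scale (SE 0.63, 8.56-fold, adjusted p = 0.00126). In control mice it had 373, 1632, 3007, 1213 and 7612 in EOM and 917, 448, 764, 992 and 197 in leg muscle, with a log2 difference of 1.62 (adjusted p = 0.0840). In EOM, mdx and control arrays overlapped, and the log2 difference was 1.45 (95% interval 0.14 to 2.77, adjusted p = 0.955). Its spread inside groups was larger than that of 99.6% of tested probe sets, and in 3 of 4 groups its highest array was the one with the highest Gapdh 5′ signal. With the 2 probe sets averaged, the Pvalb difference between muscles was 0.08 in controls (adjusted p = 0.907) and 0.93 in mdx mice (adjusted p = 0.0495). The direction for Pvalb between the muscles therefore depends on the probe set.

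**Figure D3:**
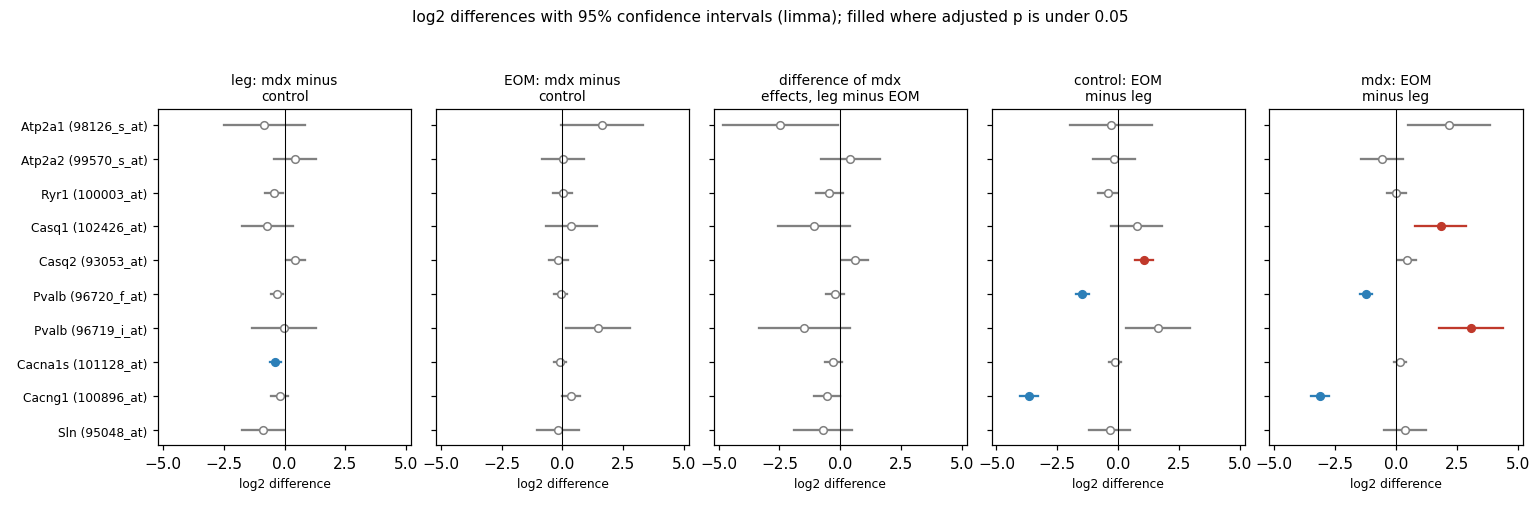
Log2 difference (x axis) of each member probe set in the 5 comparisons, with 95% confidence intervals as bars; filled points passed at an adjusted p under 0.05, red where higher and blue where lower in the group named first. Cacng1 lies at -3.66 and -3.11 in the 2 muscle comparisons, and the 2 Pvalb probe sets lie on opposite sides of 0 there.

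The arrays of EOM and leg muscle also differed in markers of other tissues. Over 5 epithelium and gland markers the sums were 3338 to 4497 in mdx EOM, 3760 to 4893 in control EOM and 332 to 477 in mdx leg muscle. In control leg muscle they were 339 to 9097, with the highest value on array 4. In EOM these sums were mainly the signal of 1 gene, Bpifa2. Its means were 3834 in mdx EOM, 4235 in control EOM, 253 in mdx leg muscle and 2067 in control leg muscle. Krt5, Krt14, Krt15 and Lcn3 did not reach the level for testing, and none had a group mean above 67.4. The sums over 7 slow-fibre markers were 34967 to 54535 in mdx EOM, 32975 to 45969 in control EOM, 20332 to 38112 in mdx leg muscle and 3201 to 92228 in control leg muscle. In EOM 1 of these 7 was called higher in each genotype, where 17.7% of all probe sets were called in controls and 18.1% in mdx mice. Their median log2 difference from leg muscle was 0.76 in controls and 0.85 in mdx mice. The control median takes in control leg array 4, which had the lowest sum. The mean sums in controls were 40625 in EOM and 41402 in leg muscle. The sums over 6 smooth muscle markers were 9617 to 12953 in mdx EOM, 7490 to 10292 in control EOM, 5555 to 7484 in mdx leg muscle and 5029 to 7033 in control leg muscle. Over the 5 of 8 neuron and Schwann cell markers on the array they were 5789 to 7038 in mdx EOM, 5968 to 8292 in control EOM, 1327 to 2355 in mdx leg muscle and 977 to 2204 in control leg muscle. Of these markers only Mbp and Pmp22 reached the level for testing, and Nefl, Nefm and Snap25 did not. The 8 fast-fibre markers summed to 57020 to 91191 in mdx EOM, 53114 to 72651 in control EOM, 41569 to 72652 in mdx leg muscle and 53127 to 101444 in control leg muscle, ranges that overlapped. The extraocular fibre markers could be judged only in part, since 2 of 3, Myh3 and Myh8, were on the array and Myh13 was not. The groups were 913 to 1452 in mdx EOM, 926 to 1624 in control EOM, 575 to 1091 in mdx leg muscle and 920 to 1427 in control leg muscle. These summed ranges overlapped between eye and leg muscle. Taken alone, Myh8 ran from 592 to 1088 in mdx EOM and from 427 to 553 in mdx leg muscle, without overlap. Its ranges overlapped in controls, and those of Myh3 did so in both genotypes. Of the 2 markers 1 was called higher in EOM of mdx mice, against 18.1% of all probe sets, and 0 in controls, against 17.7%. What part such tissue or fibre type makes in the member differences, Casq2 included, was not tested.

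Other genes of the calcium pathway were followed in 4 lists drawn up by role. Their counts stand against the shares of all probe sets called, 17.9% between genotypes in leg muscle, 0.0833% in EOM, 17.7% between muscles in controls and 18.1% in mdx mice, and their medians against -0.06, -0.02, 0.02 and 0.00. In the list of triad and sarcoplasmic reticulum partners 10 of 20 genes were tested. Between genotypes 1 rose in mdx leg muscle and 0 changed in EOM. Between muscles 4 passed in controls, with 2 higher and 2 lower in EOM, and 2 passed in mdx mice, with 1 in each direction. The medians were -0.18 in leg muscle, 0.07 in EOM, 0.15 between muscles in controls and 0.14 between muscles in mdx mice. Of 5 tested genes for calcium entry, export and store refilling, 1 rose in mdx leg muscle, 0 changed in mdx EOM, 2 were higher in control EOM than in control leg muscle and 1 was higher in mdx EOM than in mdx leg muscle. Of 13 tested sensors and effectors 1 fell in mdx leg muscle and 0 changed in EOM. Of these 13, 5 passed between the muscles of controls, with 1 higher and 4 lower in EOM, and 2 passed in mdx mice. Of 6 tested calcium-binding proteins of the endoplasmic reticulum 2 rose in mdx leg muscle, 0 changed in EOM, and 1 was higher in control EOM than in control leg muscle. The medians in leg muscle were -0.17 for entry, export and refilling, -0.12 for sensors and effectors and 0.28 for the endoplasmic reticulum proteins. Those in EOM were 0.28, 0.01 and 0.06 in the same order of lists. Between muscles they were 0.61, -0.29 and 0.38 in controls and 0.24, -0.12 and 0.06 in mdx mice.

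S100a1, a calcium sensor that binds the ryanodine receptor, had the smallest adjusted p of these lists between muscles. Its signal was 7008 ± 513 in mdx EOM, 6636 ± 569 in control EOM, 1529 ± 102 in mdx leg muscle and 1756 ± 333 in control leg muscle (SD, n = 5 each). EOM was higher by 1.93 on the log2 scale in controls (3.82-fold, adjusted p = 8.04e-11) and by 2.20 in mdx mice (4.58-fold, adjusted p = 2.09e-11). Its probe set carries the same suffix as the brighter Pvalb set. Stim1, the sensor of store filling that opens calcium entry channels, had 6512 ± 626 in mdx EOM, 5321 ± 379 in control EOM, 1778 ± 331 in mdx leg muscle and 2223 ± 402 in control leg muscle. EOM was higher by 1.28 in controls (2.42-fold, adjusted p = 5.07e-07) and by 1.89 in mdx mice (3.70-fold, adjusted p = 1.59e-09). The EOM arrays of mdx and control mice did not overlap for Stim1, yet the mdx effect there, 0.29, did not pass (adjusted p = 0.955), and the difference of the mdx effects was -0.61 (adjusted p = 0.0578). For S100a1 and Stim1 no EOM array overlapped a leg array.

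Rcan1, which encodes an inhibitor of the calcium-dependent phosphatase calcineurin, was the 1 gene of these lists called lower in mdx leg muscle. Its signal was 1798, 1370, 2081, 1482 and 2222 on the mdx leg arrays and 3060, 2591, 2666, 2656 and 2641 on the control leg arrays. The groups did not overlap, and the log2 difference was -0.63 (SE 0.15, 1.54-fold, adjusted p = 0.00446). In EOM the signal was 1336 ± 239 in mdx mice and 1090 ± 165 in controls, a difference of 0.29 that did not pass. The mdx effects differed between the muscles by -0.91 (SE 0.21, adjusted p = 0.00969). Control EOM was also lower than control leg muscle, with a log2 difference of -1.33 (2.52-fold, adjusted p = 1.15e-06), and in mdx mice the difference was -0.42 (adjusted p = 0.0556).

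Asph, a locus that encodes junctin and related proteins of the sarcoplasmic reticulum, was higher in mdx than in control leg muscle. Its signal was 247, 194, 213, 144 and 211 on the mdx leg arrays and 65.1, 150, 92.2, 37.0 and 28.1 on the control leg arrays, 2 of which lay under the floor. The second control array overlapped the lowest mdx array, and the ratio of geometric means was at least 2.68-fold (adjusted p = 0.00107). The mdx effects differed between muscles by 1.47 (adjusted p = 0.0319), a call kept in 12 of 20 fits that left out 1 array and lost with a floor of 100, with array weights and without control leg arrays 1 and 4, where it was 1.22. The arrays whose omission ended it were control EOM array 5, control leg arrays 4 and 5, mdx leg arrays 1, 3 and 5, and mdx EOM arrays 2 and 3. Control EOM was at least 2.83-fold higher than control leg muscle (adjusted p = 0.000709).

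Trpv2, a cation channel of the cell membrane, had 282, 170, 396, 354 and 434 on the mdx leg arrays and 95.4, 100, 225, 70.6 and 92.3 on the control leg arrays. It rose in mdx leg muscle by 1.54 (2.91-fold, adjusted p = 0.000745), although the third control array lay above the second mdx array. Control EOM was higher than control leg muscle by 1.10 (2.15-fold, adjusted p = 0.0123), with an adjusted p of 0.0933 without control leg arrays 1 and 4. Trpv2 is also known from macrophages, whose marker sum moved with genotype in leg muscle as given above, and their part in its rise was not tested. Hspa5, the chaperone BiP of the endoplasmic reticulum, had 3352, 3984, 4435, 3622 and 5280 on the mdx leg arrays and 1769, 2091, 2306, 3201 and 2472 on the control leg arrays. These groups did not overlap, and Hspa5 rose by 0.81 (1.76-fold, adjusted p = 0.000764). Pdia3, a disulphide isomerase of the same compartment, rose by 1.30 in mdx leg muscle (2.46-fold, adjusted p = 0.0222), with 827 ± 458 in mdx mice and 309 ± 105 in controls. Its call was kept in 6 of 10 fits that left out 1 array, and was lost without control leg array 1, without mdx leg array 3, 4 or 5, without control leg arrays 1 and 4 together (1.07), and with no filter. Both are expressed by many cell types, and the share of infiltrating cells in their rise was not tested.

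**Figure D4:**
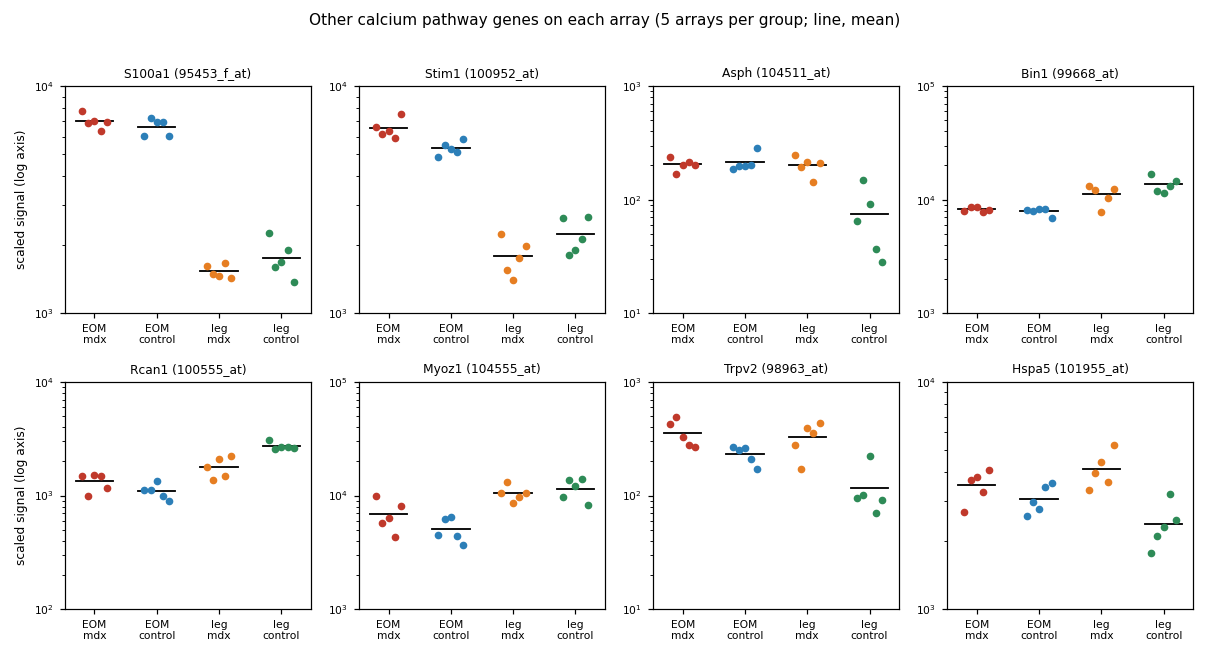
Scaled signal (log axis) of 8 other calcium pathway genes on each array, by group, with the group mean as a line. S100a1 and Stim1 lie higher on every EOM array than on any leg array, and Rcan1 lies lower on every mdx leg array than on any control leg array.

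The remaining pathway genes that passed between muscles were mostly lower in EOM. Bin1, which shapes the transverse tubule membrane, had 7925 ± 593 in control EOM and 13619 ± 2266 in control leg muscle, a log2 difference of -0.77 (adjusted p = 0.000415). In mdx mice its difference of -0.42 (adjusted p = 0.0412) was kept in only 1 of 10 fits that left out 1 array, namely without mdx leg array 3. It was also lost with no filter, with no intensity trend and with only the groups compared. Myoz1, a Z-disc protein that binds calcineurin, was lower in EOM of controls, with a log2 difference of -1.19 (2.29-fold, adjusted p = 0.000257). Its difference of -0.65 in mdx mice (adjusted p = 0.0303) was kept in 4 of 10 such fits and lost without mdx leg array 1, 2 or 5 or mdx EOM array 2, 3 or 4, and with no filter. Ppp3cb, a catalytic subunit of calcineurin, was lower in control EOM, with a log2 difference of -0.76 (adjusted p = 0.0213), which did not pass without control EOM array 5 or control leg array 2 or 5. Camk2b, a subunit of a calcium-dependent kinase, was higher in EOM of mdx mice by 0.55 (adjusted p = 0.00215) and of controls by 0.37 (adjusted p = 0.0372). Calu, a calcium-binding protein of the secretory pathway, was higher in control EOM by 0.42 (adjusted p = 0.0323), a call kept in 3 of 10 fits that left out 1 array and lost with its probe sets averaged (0.07) and with only the groups compared. It did not pass without control EOM array 2, 4 or 5 or control leg array 1, 2, 3 or 5. The counts above also include Sypl2 and Ppp3r1, which were named after their values were seen and were lower in control EOM, with log2 differences of -0.70 and -0.50.

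For each member the 1 other gene with the most similar profile was found, as the smallest root mean square difference of centred log2 values over the 20 arrays. For Pvalb, by its brighter probe set (suffix f_at) alone, this was Cbfb, at 0.17, where the median over all genes was 0.82. Cbfb had 2418 ± 253 in mdx EOM, 2570 ± 235 in control EOM, 5435 ± 1075 in mdx leg muscle and 6622 ± 90.1 in control leg muscle. For Cacng1 it was Slc38a4, at 0.80 (median 1.78), which was 468 ± 64.1 in mdx EOM, 432 ± 105 in control EOM, 1613 ± 398 in mdx leg muscle and 2112 ± 607 in control leg muscle. Casq1 was nearest to Ldha, at 0.39 (median 1.17), and Ldha had its highest and lowest values, 21288 and 1999, on control leg arrays. Casq2 was nearest to Ttc3 (0.24, median 0.63), Ryr1 to Psmd4 (0.18, median 0.52) and Cacna1s to Supt5 (0.11, median 0.44). For the other 3, Atp2a1 was nearest to Sf3a2 (0.97, median 1.62), Atp2a2 to Aprt (0.49, median 0.83) and Sln to Fastk (0.45, median 0.78). All points share the same 20 arrays, and similarity is given as a description.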

How the data were processed

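RNA of extraocular and leg muscle from mdx and control mice had been hybridised to 20 single-colour Affymetrix arrays (5 in each of 4 groups). The deposited values are linear intensities, with 1 value for each of 12654 probe sets (66 of them controls) on each array. Their 2% trimmed mean of about 1500.1 on every array shows that the authors had scaled them, with a program not given in the sources. Each array was rescaled to a trimmed mean of 500 over 12588 non-control probe sets, values under 50 were set to 50, and log2 was taken. Signals are printed before that floor. The 7204 probe sets reaching 200 on at least 5 arrays entered 1 model of the 4 groups (limma 3.58.1, R 4.3.3, functions lmFit and eBayes, variance prior trended on intensity, 16 residual degrees of freedom). The 5 comparisons were the mdx effect in leg muscle, the mdx effect in EOM, the first minus the second, and EOM minus leg muscle within controls and within mdx mice. P-values were adjusted by Benjamini and Hochberg's method per comparison, with a threshold of 0.05. A gene was represented by its brightest probe set. Gene names come from the platform annotation, which gave 1 symbol for 10298 probe sets.

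The members and lists were chosen with earlier results of these data known, and the direction of a list is no independent evidence. Named were all members, up to 3 genes with the smallest passing adjusted p per pathway list and comparison, the nearest gene of each member, and Dmd. The fits were tested on simulated data. As alternatives, the scaling, floor, pseudocount, filter, variance trend, array weighting, choice of fitted groups, replicate block and averaging of probe sets were each varied, and each array was left out. The fits of pathway genes under these settings, and their counts and the isoform ratios without control leg arrays 1 and 4, were added after seeing the data. The number of arrays limits the precision. The expression of Pln is not analysed here.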

Additional observations from a re-analysis of the deposited data

Results flagged for a closer look

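Among 40 sets of 5 arrays examined (10 probe sets in 4 groups), 2 held an array whose log2 signal lay more than 0.71 of the set's whole log2 range from its nearest neighbour (0.763 and 0.753), where chance gives about 1 in 20. The dimmer Pvalb probe set (suffix i_at) had a signal of 1155.16 on mdx EOM array 4, while the next lowest of that group had 5571. Sln had a signal of 53.2874 on mdx EOM array 5, while the next lowest had 177. These are the lowest arrays of their groups, and neither array was low for both genes.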

How the results depend on the processing

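The number of members called between mdx and control leg muscle, 1 in the report, was 0 with quantile normalization, 3 with array weights, 0 with only the groups compared, 0 without control leg arrays 1 and 4, and 0 to 2 when 1 array was left out. Between the muscles of mdx mice, 3 members were called in the report, against 5 with array weights and 5 with only the groups compared. The other counts of called members stayed within 1.5 times under each setting tried. For Pvalb, averaging its probe sets turned the difference between muscles to 0.077 in controls and 0.93 in mdx mice. The cause of these changes was not tested, apart from that average, which by its making takes in the second probe set. Replicate numbers recur across groups. Between genotypes same-numbered arrays deviated together only weakly, with r from 0.01 to 0.18 in leg muscle and from 0.02 to 0.23 in EOM. Between muscles r ran from -0.01 to 0.05 in controls and from -0.08 to 0.08 in mdx mice. The titles give only these numbers, and such r values cannot show whether EOM and leg arrays came from the same mice. The numbers were not taken as pairs in the main fit. With a replicate block the members called numbered 1 and 0 for genotype in leg muscle and EOM, and 0 for the difference. Between muscles they numbered 3 in controls and 4 in mdx mice, where Atp2a1 was gained. Over all probe sets the calls in the same order numbered 1351, 7, 458, 1351 and 1386 with the block. The main fit had 1287, 6, 448, 1275 and 1302, and quantile normalization had 1258, 7, 436, 1252 and 1355. Such totals for array weights and for only the groups compared are not given here. Genes near background, such as Sln and Asph, have the least certain folds.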
